A study of Mus musculus with 2 samples.

Results

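The genes described here encode the cyclins, kinases and inhibitors of the G1 phase, the part of the cell cycle in which a cell commits to another division. They are the D cyclins Ccnd1, Ccnd2 and Ccnd3, the E cyclin Ccne1, the kinases Cdk4 and Cdk6, the Cip/Kip inhibitors Cdkn1a and Cdkn1b, and the INK4 inhibitors Cdkn2c and Cdkn2d. They were taken by symbol, and all 10 were found among the 43437 genes of the gene table, with 48 of the 103615 isoforms of the isoform table. Polyadenylated RNA was sequenced from the telencephalon and from the whole body of ICR mice before birth, at E12.5, in 1 library per tissue. ICR mice are an outbred stock, and the telencephalon is the forebrain region that gives rise to cerebral cortex and basal ganglia. Both groups were wild type and received no treatment. How many fetuses went into a library and of which sex is not stated, nor whether the whole body included the head.

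D cyclins bind Cdk4 or Cdk6, and these complexes phosphorylate the retinoblastoma protein and its relatives, which releases E2F transcription factors from repression. E cyclins then activate Cdk2, and DNA replication begins. INK4 proteins bind Cdk4 and Cdk6 themselves, whereas Cip/Kip proteins bind whole cyclin and kinase complexes. In the embryonic telencephalon, progenitors divide next to the ventricle, their G1 phase lengthens as neurons form, and newborn neurons leave the cycle.

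Values are FPKM, a fragment number per length of transcript and per depth of library, so levels of different genes are compared per length. The steps between low FPKM values corresponded to about 22200000 fragments in telencephalon and 28700000 in whole body. On a transcript of 2000 bases, 3 fragments were worth 0.0804 FPKM in telencephalon and 0.0619 FPKM in whole body. With 1 library for each tissue there is no replicate error, and no p-value is given. Intervals are exact 95% binomial intervals of the ratio of estimated fragments, scaled by depth, and cover counting error within these libraries alone. A gene was counted as higher or lower at a log2 ratio of FPKM + 1, telencephalon over whole body, of at least 1 or at most -1. This log2 scale understates the difference of weakly expressed genes.

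Markers of the telencephalon were high in the library of that name. Of 10 telencephalic progenitor markers 9 passed 2-fold upward, the exception being Emx2 at 4.75 FPKM in telencephalon and 1.93 FPKM in whole body, and all 9 measured neuron markers did so. Markers of other body tissues were lower. The 8 liver markers summed to 5.37 FPKM in telencephalon and 2098 FPKM in whole body, with Apoa2 and Serpina1a listed at 0 in telencephalon. The 8 mesenchyme markers summed to 16.5 FPKM in telencephalon and 1730 FPKM in whole body, and the 7 measured muscle markers to 2.45 FPKM in telencephalon and 630 FPKM in whole body. The 8 epithelium markers summed to 1.44 FPKM in telencephalon and 119 FPKM in whole body, with Krt14 and Krt18 listed at 0 in telencephalon. The 8 red cell markers summed to 2626 FPKM in telencephalon and 4683 FPKM in whole body, most of it from embryonic globins, and 8 endothelium and macrophage markers to 50.2 FPKM in telencephalon and 140 FPKM in whole body.

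Among the G1 genes, Ccnd3, Ccne1 and Cdkn1a were lower in telencephalon, and the other 7 had positive log2 ratios within 2-fold. All 10 genes had 1 FPKM or more in both libraries. At the 2-fold threshold 3 of 10 were lower, where 21.2% of all 14987 measured genes were lower. None of the 10 was at least 2-fold higher, where 9.39% of all measured genes were, and Cdkn1b lay just inside the threshold at a log2 ratio of 0.99. At 1.5-fold the same 3 genes were lower, where 31.6% of all measured genes were, and Ccnd2 and Cdkn1b were higher, where 17% were. The median log2 ratio of the 10 genes was 0.19, beside -0.16 over all measured genes. In TPM the median of the 10 genes was 0.35, beside -0.02 over the 16791 genes then measured. In such bulk samples, fewer cells of a type and less RNA per cell cannot be told apart.

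**Figure D1:**
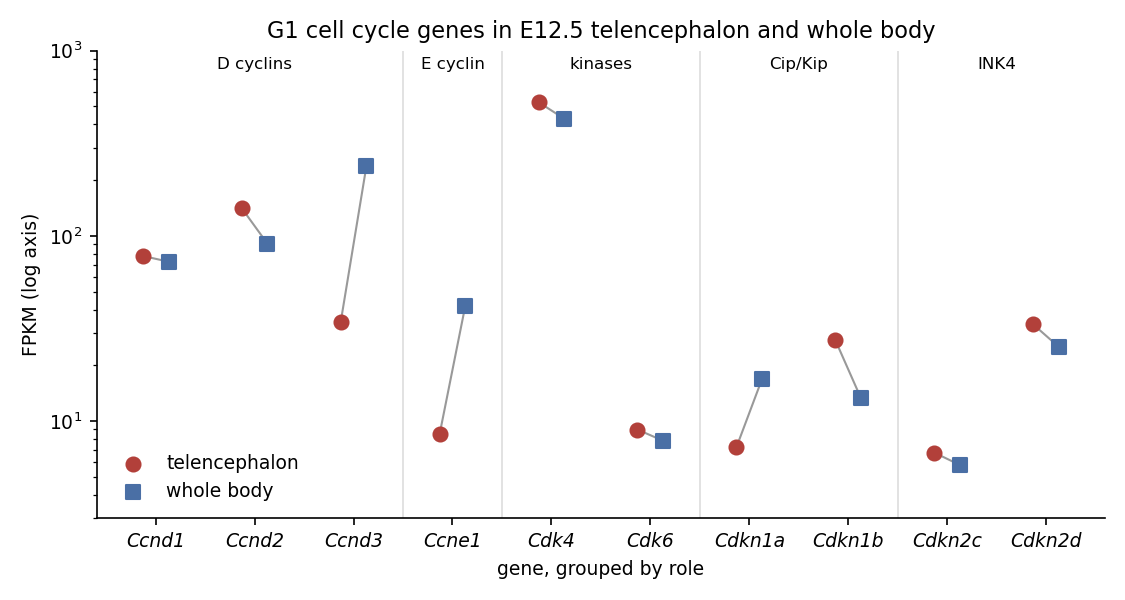
Level of each G1 gene in FPKM on a log axis, with telencephalon as red circles and whole body as blue squares, 1 library each, and no error bars because there are no replicates. Ccnd3, Ccne1 and Cdkn1a lie lower in telencephalon, Cdkn1b and Ccnd2 lie higher, and Cdk4 is the most abundant of the 10 genes in both libraries.

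The D cyclins are the subunits whose levels respond to growth signals, and all 3 share a short stretch near the start of the protein that contacts the retinoblastoma protein. It consists of leucine, cysteine and glutamate, each separated by 1 other residue. The first 60 coding bases of each gene are shown, 5′ to 3′, from the GENCODE M21 transcripts (GRCm38), because the results turn on the balance among these 3 related genes. Capitals mark the 5 codons of this stretch, codons 5 to 9 in Ccnd1 and 3 to 7 in Ccnd2 and Ccnd3.
Ccnd1, chr7:144939634-144939693, minus strand: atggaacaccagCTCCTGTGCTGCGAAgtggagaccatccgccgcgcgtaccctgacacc
Ccnd2, chr6:127150714-127150773, minus strand: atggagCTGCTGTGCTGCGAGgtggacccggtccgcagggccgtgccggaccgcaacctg
Ccnd3, chr17:47593655-47593714, plus strand: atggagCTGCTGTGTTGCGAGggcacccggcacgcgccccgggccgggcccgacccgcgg
Over the aligned coding sequence, Ccnd1 and Ccnd2 were identical at 70.1% of bases, Ccnd2 and Ccnd3 at 68.9%, and Ccnd1 and Ccnd3 at 66.4%. In the main transcript of each D cyclin, no stretch of 50 bases occurred in another D cyclin. Stretches shared with other genes made up 27.2% in Ccnd1, 23.5% in Ccnd3 and 5.17% in Ccnd2.

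Ccnd2 was the most abundant D cyclin in telencephalon, whereas Ccnd3 was the most abundant in whole body. Ccnd3 (ENSMUSG00000034165, chr17:47505051-47599691, plus strand) had 34.2 FPKM in telencephalon and 238 FPKM in whole body, from about 1229 fragments in telencephalon and 9693 in whole body. It was 6.96-fold lower in telencephalon, with a log2 ratio of -2.76 and a rank of 633 from the lowest among the 14987 measured genes. By fragments alone it was 6.10-fold lower, with an interval of 5.75 to 6.48.

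Ccnd2 (ENSMUSG00000000184, chr6:127125162-127152193, minus strand), a D cyclin known from cortical progenitors, had 141 FPKM in telencephalon and 90.7 FPKM in whole body. It was 1.56-fold higher in telencephalon, a log2 ratio of 0.63, with a fragment ratio of 1.55 and an interval of 1.52 to 1.59. Ccnd1 (ENSMUSG00000070348, chr7:144929931-144939925, minus strand) had 77.9 FPKM in telencephalon and 72.5 FPKM in whole body. Its fragment ratio was 1.08, with an interval of 1.04 to 1.12, so Ccnd1 was nearly level in the libraries while Ccnd2 and Ccnd3 lay on opposite sides of it.

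The summed FPKM of the D cyclins was 253 in telencephalon and 402 in whole body. In telencephalon Ccnd2 made up 55.7% of this sum, Ccnd1 30.8% and Ccnd3 13.5%. In whole body Ccnd3 made up 59.3%, Ccnd2 22.6% and Ccnd1 18.1%. These shares are taken within a library, so a common scaling factor does not move them. Ccnd2 exceeded Ccnd1 by 1.81-fold in telencephalon and 1.25-fold in whole body. The ratio of Ccnd3 to Ccnd2 was 0.243 in telencephalon and 2.63 in whole body.

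**Figure D2:**
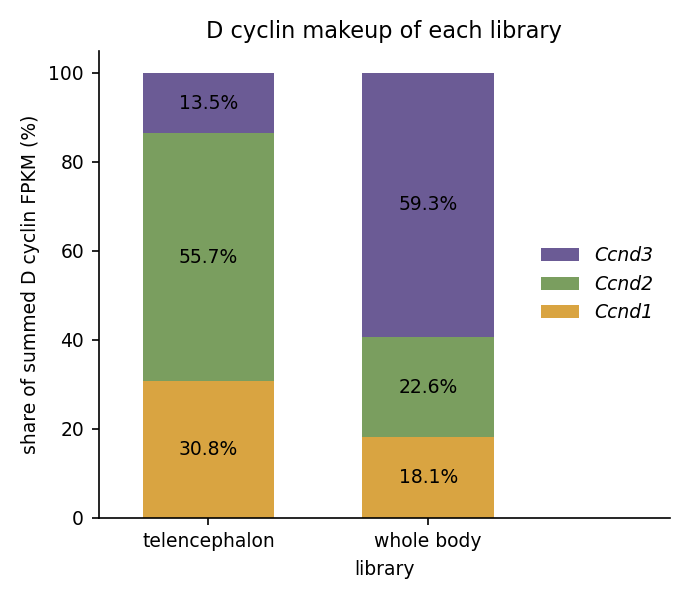
Share of the summed D cyclin FPKM held by Ccnd1, Ccnd2 and Ccnd3, in percent, with 1 bar for the telencephalon library and 1 for the whole-body library. Ccnd3 holds 13.5% in telencephalon and 59.3% in whole body, and Ccnd2 holds 55.7% in telencephalon and 22.6% in whole body.

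The exons of Ccnd1 overlap those of Oraov1 on the other strand over 1100 bases, and the kit does not mark strand. Oraov1 had 16.9 FPKM in telencephalon and 9.67 FPKM in whole body, below Ccnd1 in both, and reads of the shared stretch cannot be told apart. Ccnd3 overlaps Bysl over 361 bases, and Bysl had 12.4 FPKM in telencephalon and 18.0 FPKM in whole body. Ccnd3 also shares stretches with its pseudogene Ccnd3-ps, which had 1.13 FPKM in telencephalon and 0.487 FPKM in whole body.

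Ccnd3 has 21 isoforms in the table, with annotated starts in a distant upstream region, next to the first exon of the main isoform and inside the gene. The main isoform Ccnd3-205, of 1977 bases, starts downstream and had 30.7 FPKM in telencephalon and 172 FPKM in whole body, or 5.61-fold less in telencephalon. Isoforms that begin at the upstream region (chromosome 17, 47505051 to 47505241) summed to 1.95 FPKM in telencephalon and 40.4 FPKM in whole body. They made up 5.68% of Ccnd3 in telencephalon and 16.9% in whole body, from about 44 fragments in telencephalon and 878 in whole body. Isoforms that begin at the downstream region (47593436 to 47593529) made up 91.7% in telencephalon and 72.9% in whole body. They were 5.53-fold lower in telencephalon, while those with upstream starts were 20.7-fold lower. Isoforms that begin inside the gene made up 2.62% in telencephalon, from about 1 fragment, and 10.2% in whole body, and were 27.0-fold lower. Each group of isoforms was therefore lower. The upstream group and the group inside the gene took smaller shares in telencephalon.

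Of the upstream isoforms, Ccnd3-207 (853 bases) had 1.10 FPKM in telencephalon and 32.2 FPKM in whole body. Ccnd3-215 (2064 bases) had 0.0553 FPKM in telencephalon, about 2 fragments, and 6.70 FPKM in whole body. Ccnd3-208, an isoform of 931 bases that begins inside the gene, had about 0 fragments in telencephalon and 23.8 FPKM in whole body, about 424 fragments. Isoform values come from the authors' division of shared reads, and with no replicate their error is unknown.

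The sequence around the upstream and downstream Ccnd3 starts is shown because the isoforms that begin there differed in their shares. Each window runs from 250 bases before to 50 after a start annotated by RefSeq (GRCm38.p6), 5′ to 3′ on the gene's strand, and is reference sequence, not that of ICR mice. Capitals mark the GC box GGGCGG on either strand, the motif bound by Sp1 and related factors.
Ccnd3 upstream start, chr17:47504801-47505100, plus strand: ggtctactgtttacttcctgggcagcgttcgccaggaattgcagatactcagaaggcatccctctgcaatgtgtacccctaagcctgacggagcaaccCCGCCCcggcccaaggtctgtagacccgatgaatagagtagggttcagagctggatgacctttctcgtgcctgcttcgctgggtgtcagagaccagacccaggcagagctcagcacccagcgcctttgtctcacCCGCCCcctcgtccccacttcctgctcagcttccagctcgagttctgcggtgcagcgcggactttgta
Ccnd3 downstream start, chr17:47593217-47593516, plus strand: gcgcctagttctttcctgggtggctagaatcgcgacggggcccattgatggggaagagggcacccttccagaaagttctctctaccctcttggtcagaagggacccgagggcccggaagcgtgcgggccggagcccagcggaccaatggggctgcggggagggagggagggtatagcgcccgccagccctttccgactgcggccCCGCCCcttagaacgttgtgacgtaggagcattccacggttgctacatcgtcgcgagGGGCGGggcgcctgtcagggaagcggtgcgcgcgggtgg
Both windows hold 2 GC boxes. The GC content was 59.3% at the upstream start and 67.0% at the downstream start.

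Ccne1 (ENSMUSG00000002068, chr7:38097984-38107534, minus strand) encodes a cyclin that activates Cdk2 at the end of G1, and it was lower in telencephalon. It had 8.50 FPKM in telencephalon and 42.1 FPKM in whole body, from about 317 fragments in telencephalon and 2001 in whole body. This was 4.95-fold lower, with a log2 ratio of -2.18 and a rank of 1053 from the lowest. The fragment ratio was 4.88-fold lower, with an interval of 4.33 to 5.51. The isoform Ccne1-201 carried 100% of the signal in telencephalon and 97.7% in whole body, so the difference does not turn on isoforms, and no stretch of 50 bases is shared with another gene. The D cyclins together exceeded Ccne1 by 29.8-fold in telencephalon and 9.55-fold in whole body. Ccne2, the related E cyclin, had 3.24 FPKM in telencephalon and 5.20 FPKM in whole body, and Cdk2, the kinase of the E cyclins, had 17.6 FPKM in telencephalon and 35.6 FPKM in whole body.

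The Ccne1 window is printed beside those of Ccnd3 because both genes were lower in telencephalon.
Ccne1, chr7:38107441-38107740, minus strand: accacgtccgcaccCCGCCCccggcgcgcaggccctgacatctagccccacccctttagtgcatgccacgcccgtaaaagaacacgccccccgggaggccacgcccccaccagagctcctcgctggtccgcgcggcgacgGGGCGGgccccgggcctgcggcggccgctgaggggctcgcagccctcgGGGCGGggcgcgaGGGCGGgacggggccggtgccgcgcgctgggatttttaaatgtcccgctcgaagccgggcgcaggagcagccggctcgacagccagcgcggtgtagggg
It holds 4 GC boxes at a GC content of 76.0%.

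The kinases Cdk4 and Cdk6, partners of the D cyclins, had positive log2 ratios within 2-fold. Cdk4 (ENSMUSG00000006728, chr10:127063534-127067920, plus strand) had 527 FPKM in telencephalon and 429 FPKM in whole body, a log2 ratio of 0.30. Its fragment ratio was 1.29, with an interval of 1.25 to 1.32. Cdk6 (ENSMUSG00000040274, chr5:3341485-3531008, plus strand) had 8.99 FPKM in telencephalon and 7.82 FPKM in whole body. Its fragment ratio was 1.14, with an interval of 1.04 to 1.23. Cdk4 exceeded Cdk6 by 58.7-fold in telencephalon and 54.9-fold in whole body, so the balance of the kinases was similar in the libraries while that of the D cyclins was not. The kinases summed to 2.12 times the D cyclins in telencephalon and 1.09 times in whole body.

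Cdk4 has 9 isoforms in the table, and protein-coding isoforms held 83.8% of it in telencephalon and 77.0% in whole body. The full-length isoform Cdk4-201 (2053 bases) had 176 FPKM in telencephalon and 125 FPKM in whole body. The isoform Cdk4-205 (950 bases) had 253 FPKM in telencephalon and 190 FPKM in whole body. In the full-length isoform 29.5% of the stretches of 50 bases occur in other genes, and its exons overlap Tspan31 on the other strand, which had 38.4 FPKM in telencephalon and 50.1 FPKM in whole body. How far this affects the level of Cdk4 was not measured, and such stretches were not counted for Cdk4-205. Cdk6 was divided in nearly the same way in both libraries, with Cdk6-201 at 65.2% in telencephalon and 64.5% in whole body. The coding sequences of Cdk4 and Cdk6 were identical at 68.0% of aligned bases.

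The Cip/Kip inhibitors Cdkn1a and Cdkn1b lay on opposite sides. Cdkn1b (ENSMUSG00000003031, chr6:134920401-134925513, plus strand), which promotes cell cycle exit in many lineages, had 27.3 FPKM in telencephalon and 13.2 FPKM in whole body. It was 2.06-fold higher by FPKM, while the log2 ratio of FPKM + 1 was 0.99, with a rank of 1421 from the highest. By fragments the ratio was 1.87, with an interval of 1.72 to 2.02. Most of the difference lay in Cdkn1b-201 (2393 bases), with 22.1 FPKM in telencephalon and 9.17 FPKM in whole body. The longer isoform Cdkn1b-202 (4552 bases), with the same coding length, had 5.24 FPKM in telencephalon and 4.07 FPKM in whole body. Cdkn1b-201 made up 80.8% of the gene in telencephalon and 69.3% in whole body.

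Cdkn1a (ENSMUSG00000023067, chr17:29090976-29100727, plus strand), a target of p53 that is induced by DNA damage and in differentiating muscle, was lower in telencephalon. It had 7.22 FPKM in telencephalon and 16.9 FPKM in whole body, from about 218 fragments in telencephalon and 720 in whole body. The log2 ratio was -1.12, and by fragments it was 2.55-fold lower, with an interval of 2.19 to 2.99. With a pseudocount of 5 FPKM the log2 ratio was -0.84, and centred on the median of all measured genes it was -0.97, so that Cdkn1a then lay within 2-fold. The main isoform Cdkn1a-201 had 4.94 FPKM in telencephalon and 14.4 FPKM in whole body. Cdkn1a-203, which starts inside the gene, had 2.28 FPKM in telencephalon and 2.06 FPKM in whole body, so the difference lay in the main isoform. The ratio of Cdkn1b to Cdkn1a was 3.79 in telencephalon and 0.783 in whole body, an exchange of rank between the libraries.

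The windows of the main Cdkn1a start and of Cdkn1b are shown because these related inhibitors differed in opposite directions. Each is drawn as for Ccnd3.
Cdkn1a main start, chr17:29093519-29093818, plus strand: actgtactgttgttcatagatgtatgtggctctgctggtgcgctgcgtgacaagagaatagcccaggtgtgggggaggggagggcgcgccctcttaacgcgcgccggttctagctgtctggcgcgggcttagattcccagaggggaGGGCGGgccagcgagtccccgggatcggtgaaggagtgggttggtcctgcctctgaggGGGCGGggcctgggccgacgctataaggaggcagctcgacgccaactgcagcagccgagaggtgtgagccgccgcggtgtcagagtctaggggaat
Cdkn1b, chr6:134920151-134920450, plus strand: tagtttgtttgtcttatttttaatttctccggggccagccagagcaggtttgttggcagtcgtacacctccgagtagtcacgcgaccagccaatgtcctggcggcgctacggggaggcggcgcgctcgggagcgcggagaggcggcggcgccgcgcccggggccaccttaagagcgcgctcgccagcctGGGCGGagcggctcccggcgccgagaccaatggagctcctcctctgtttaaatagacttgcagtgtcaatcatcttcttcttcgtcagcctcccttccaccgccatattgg
They hold 2 GC boxes in Cdkn1a and 1 in Cdkn1b. Across the 11 windows that RefSeq gives for 8 of the genes, 8 held a GC box, and 35.7% of 32851 such windows over all genes did. None held the E2F consensus, searched on both strands as TTTCCCGC, TTTCGCGC, TTTGCCGC and TTTGGCGC, which 2.26% of all windows held. With words this rare and 11 windows, finding none says little, and variant E2F sites were not searched. The exact word TATAAA of the TATA box, counted anywhere in a window, occurred in 1 of the 11, that of Cdk6, and in 13.6% of all windows. Its distance from the start was not examined and near matches were not counted, so a working TATA box is neither shown nor excluded for any gene. Ccnd1 and Ccnd2 had no window among the 11.

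**Figure D3:**
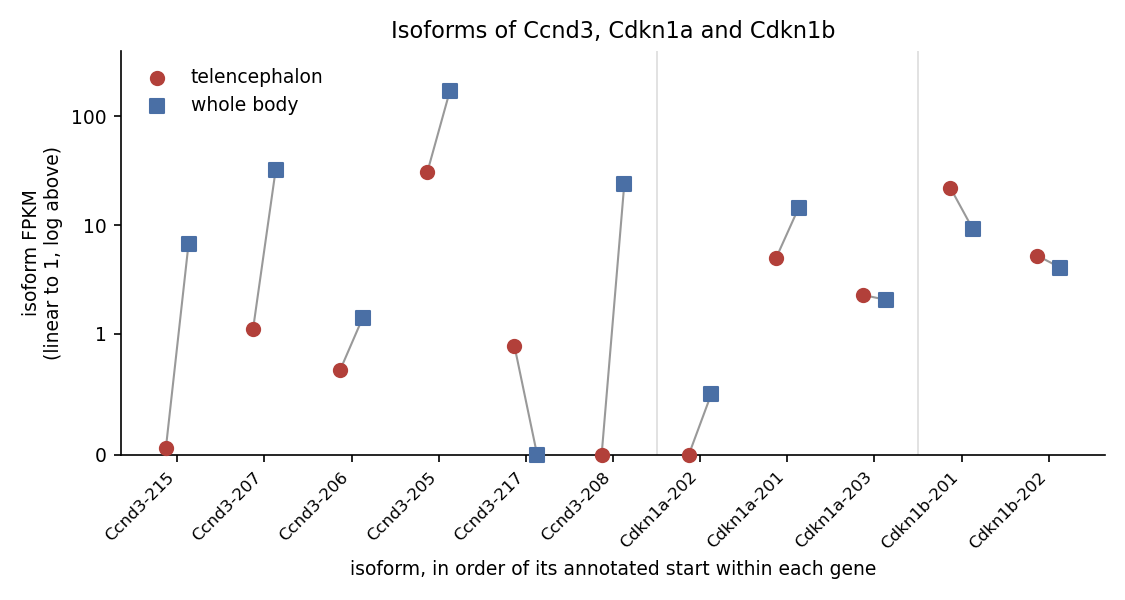
FPKM of the isoforms of Ccnd3, Cdkn1a and Cdkn1b with at least 2% of their gene in either library, in telencephalon (red circles) and whole body (blue squares), on an axis that is linear to 1 FPKM and logarithmic above. Ccnd3-205 is the most abundant of them in both libraries, with 30.7 FPKM in telencephalon and 172 FPKM in whole body.

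The INK4 inhibitors, which bind Cdk4 and Cdk6, were within 2-fold. Cdkn2d (ENSMUSG00000096472, chr9:21288410-21291407, minus strand) had 33.3 FPKM in telencephalon and 25.1 FPKM in whole body, with a fragment ratio of 1.31 and an interval of 1.18 to 1.46. Cdkn2c (ENSMUSG00000028551, chr4:109660876-109667189, minus strand) had 6.75 FPKM in telencephalon and 5.78 FPKM in whole body. Its fragment ratio was 1.16, with an interval of 0.994 to 1.35 that includes 1, so the difference was not detectable at this depth. Cdkn2d exceeded Cdkn2c by 4.93-fold in telencephalon and 4.34-fold in whole body. The other INK4 genes were near or below the level of a few fragments. Cdkn2a had about 2 fragments in telencephalon and was listed at 0 in whole body, and Cdkn2b had 0.166 FPKM in telencephalon and 0.286 FPKM in whole body.

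The 4 inhibitors among the members summed to 74.5 FPKM in telencephalon and 61.0 FPKM in whole body. This sum leaves out the Cip/Kip inhibitor Cdkn1c, which had 42.5 FPKM in telencephalon and 462 FPKM in whole body. In whole body Cdkn1c alone thus exceeded the 4 together, so the sum does not describe inhibitor RNA as a whole. Within the sum of the 4, Cdkn1b made up 36.7% in telencephalon and 21.7% in whole body. Cdkn1a made up 9.68% in telencephalon and 27.7% in whole body. Ordered by level, the genes ran Cdk4, Ccnd2, Ccnd1, Ccnd3, Cdkn2d, Cdkn1b, Cdk6, Ccne1, Cdkn1a and Cdkn2c in telencephalon. In whole body the order was Cdk4, Ccnd3, Ccnd2, Ccnd1, Ccne1, Cdkn2d, Cdkn1a, Cdkn1b, Cdk6 and Cdkn2c. The first and last genes were thus the same, while Ccnd3, Ccne1 and Cdkn1a each stood 2 or 3 places lower in telencephalon. Without replicates, it is not known which neighbours in these orders differ beyond biological spread.

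Other genes of G1 control were mostly within 2-fold. Of 26 measured genes 3 passed 2-fold downward and 1 upward, with a median log2 ratio of -0.36. Over all 14987 measured genes 21.2% passed downward and 9.39% upward. Under a common upper quartile, TPM, median centring or a pseudocount of 5 FPKM 2 genes passed downward, and of the 3 lower genes E2f4 was nearest to the threshold, at a log2 ratio of -1.05. Cdkn1c, the remaining Cip/Kip inhibitor and an imprinted gene, had 42.5 FPKM in telencephalon and 462 FPKM in whole body, or 10.9-fold less in telencephalon. The activator E2f2 had 5.71 FPKM in telencephalon and 21.2 FPKM in whole body, and the repressor E2f4 had 42.1 FPKM in telencephalon and 88.2 FPKM in whole body. Fbxw7, the ubiquitin ligase subunit that recognises cyclin E, had 16.2 FPKM in telencephalon and 7.58 FPKM in whole body, a log2 ratio of 1.0. The retinoblastoma gene Rb1 had 8.44 FPKM in telencephalon and 8.52 FPKM in whole body, and E2f1 had 24.1 FPKM in telencephalon and 20.2 FPKM in whole body.

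Genes of the later phases did not show differences of the size seen in Ccnd3 and Ccne1. None of 18 measured DNA replication genes was past 2-fold in either direction, with log2 ratios of -0.82 to 0.47 and a median of -0.38. None of 20 mitosis genes was, with log2 ratios of -0.97 to 0.51 and a median of -0.06. Over all measured genes 21.2% were at least 2-fold lower and 9.39% at least 2-fold higher. Whether the G1 genes differ from these lists was not tested. Of 14 measured p53 targets other than Cdkn1a, 2 were lower and none higher, with a median of -0.04. These were the death receptor gene Tnfrsf10b, with 0.418 FPKM in telencephalon and 4.15 FPKM in whole body, and Phlda3, with 2.23 FPKM in telencephalon and 9.73 FPKM in whole body. Mdm2, the p53 ligase and target, had 20.3 FPKM in telencephalon and 20.1 FPKM in whole body.

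The last list held cyclins and Cdks with other roles, the Cdk5 activators Cdk5r1 and Cdk5r2 and the pseudogene Cdk3-ps. Of its 26 measured genes 1 was higher and 1 lower, with a median log2 ratio of 0.14, where 9.39% of all 14987 measured genes were higher and 21.2% lower. The higher one, Cdk5r1, which activates Cdk5 in neurons, had 155 FPKM in telencephalon and 21.4 FPKM in whole body, and the lower one, the kinase gene Cdk18, had 0.0984 FPKM in telencephalon and 2.77 FPKM in whole body. Under TPM, and with ratios centred on the median of all measured genes, 5 of these genes were higher. Of all genes measured under each setting, 12.7% were higher in TPM and 11.7% with centring.

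**Figure D4:**
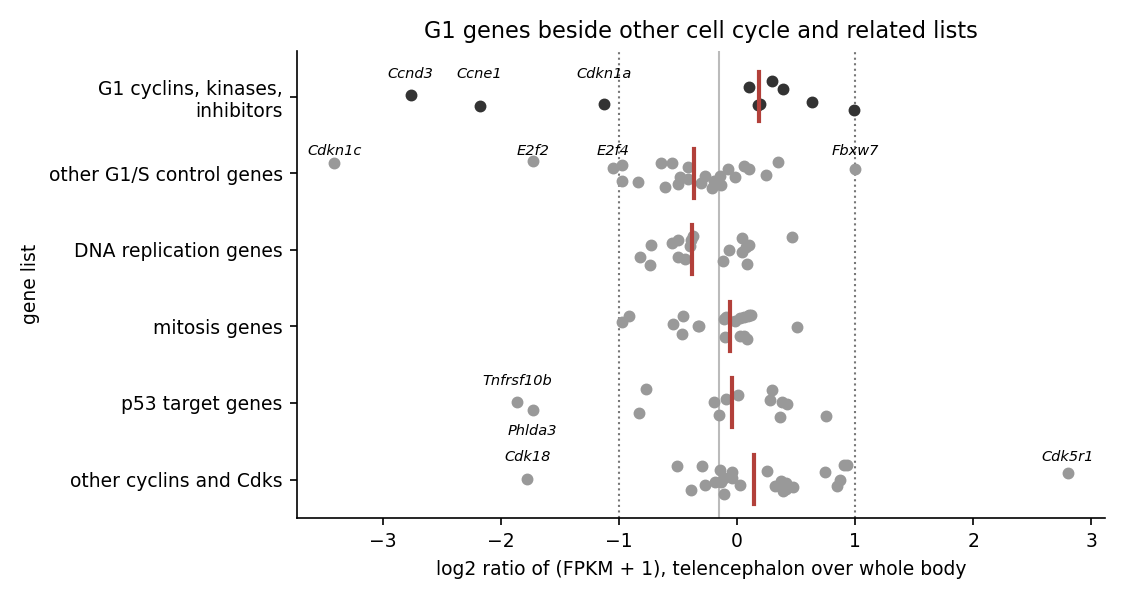
Log2 ratio of FPKM + 1, telencephalon over whole body, for each measured gene of 6 lists, with the median of each list as a red bar, the median of all measured genes as a grey line and the 2-fold threshold as dotted lines. The 3 lower G1 genes lie beyond -1, with Cdkn1a nearest to it at -1.12. No replication or mitosis gene does, though the mitosis gene Mki67 comes close at -0.97.

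All measured markers of liver, mesenchyme, muscle and epithelium were at least 2-fold lower in telencephalon. So were 5 of 8 of red cells and 7 of 8 of endothelium and macrophages, and also Ccnd3, Ccne1 and Cdkn1a. The share at least 2-fold lower over all 14987 measured genes was 21.2%. The part of these cell types in the differences was not tested. By distance over the 2 values of log2(FPKM + 1), the protein-coding genes most like Ccnd3 among 13705 were Igfbp4 (distance 0.21, with 38.2 FPKM in telencephalon and 264 FPKM in whole body), Ucp2 (0.22) and Plagl1 (0.32). Those most like Cdkn1b were Tmem121 (0.018), Gramd4 (0.033) and Cdh13 (0.034). With 2 values a gene, such likeness is a description only.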

How the data were processed

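RNA-seq was made from 1 telencephalon and 1 whole-body library of ICR fetuses, per the labels' protocols. The TruSeq RNA v2 kit captures polyadenylated RNA without keeping the strand. The deposited values are FPKM per gene and per isoform. TopHat, Cufflinks and Cuffdiff were used with GRCm38, per the submitters' processing notes, and which annotation release served is not given in those notes. FPKM are not counts, so no count model was run.

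Log2 ratios of FPKM + 1 were taken over the whole gene table, and a gene counted as measured with at least 1 FPKM in either library. Coordinates, isoform lengths and classes came from GENCODE M21, matched by identifier, and promoter sequences from RefSeq (GRCm38.p6). Depth was estimated from single-isoform genes of 800 bases or more, as the depth and subtracted length (320 bases in telencephalon, 310 in whole body) that made most values below 4.5 fragments whole. Within 0.1 fragments, 96.7% of 1995 values in telencephalon and 96.8% of 1857 in whole body were then whole. A setting fixed beforehand would give 20% by chance. These settings were fitted to the same values, so the share is no independent check. An isoform's fragments are its FPKM times its length, less the subtracted bases, and the depth. Python 3.11.15, pandas 2.3.3, scipy 1.17.1 and Biopython 1.88 were used. The depth estimate, at these subtracted lengths, and the 2-fold calls were tested on simulated data with counting noise alone. Intervals, isoform fragments and sequence steps were not simulated.

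The members and gene lists were chosen with earlier results of these data known. All 10 members are named, with up to 3 genes past 2-fold per direction and list and the 3 nearest genes of the members with the highest and lowest ratio. Other genes named as reference points were chosen after their values were seen. Of the list symbols, 6 are not analysed here. The alternatives were another pseudocount, scaling, filter, fold or set of isoforms, and, chosen after seeing the data, depth-scaled fragments.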

Additional observations from a re-analysis of the deposited data

How the results depend on the processing

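Over the 11 alternatives, several of which leave a member's ratio as reported by construction, the log2 ratio of Ccnd3 ranged from -2.80 to -2.61, that of Ccne1 from -2.29 to -1.80, that of Cdkn1a from -1.35 to -0.84 and that of Cdkn1b from 0.83 to 1.18. The count of members at least 2-fold higher was 0 as reported and 1, Cdkn1b, with a pseudocount of 0.1 FPKM, a common upper quartile, TPM or median centring, and 2 at 1.5-fold. Of all genes measured under each setting, 11.8% were higher with a pseudocount of 0.1 FPKM and 10.1% with a common upper quartile. The share higher was 12.7% in TPM and 11.7% with centring. The members' median of 0.19 was 0.35 in TPM and 0.34 with centring, while the median of all measured genes moved to -0.02 in TPM. At 1.5-fold, 31.6% of all measured genes were lower and 17% higher. The lower genes were 8 of 26 of other G1 control, 3 of 18 of replication and 2 of 20 of mitosis. They also included 4 of 14 p53 targets and 1 of 26 of the list of other cyclins and Cdks. The higher genes at 1.5-fold were 1 of other G1 control, 1 p53 target and 6 of the list of other cyclins and Cdks. With a pseudocount of 0.1 FPKM, 5 genes of other G1 control were lower, where 25.4% of all measured genes were. With a pseudocount of 5 FPKM, 0 of them were higher, 1 p53 target was lower and 0 genes of the cyclin and Cdk list were lower. With 5 FPKM or more required in either library, 1 p53 target and 0 genes of the cyclin and Cdk list were lower. Of all genes at that level 18.9% were lower. Genes of the cyclin and Cdk list at least 2-fold higher numbered 5 in TPM and with centring, and 2 over protein-coding isoforms. Of all genes measured by protein-coding isoforms 8.4% were higher. Over protein-coding isoforms the ratio of Cdk4 to Cdk6 was 49.2 in telencephalon and 42.3 in whole body. Over all genes, a pseudocount of 5 FPKM left 800 higher and 1490 lower, in place of 1408 higher and 3170 lower. With that pseudocount 5.34% of all measured genes were higher and 9.94% lower. No paired analysis was possible because each tissue has 1 library. Without replicates, the spread between fetuses or libraries is unknown.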
